A study of Macaca fascicularis with 6 samples.

Results

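The NF-κB and inflammatory mediator genes described here were 10 genes named by symbol, *IL6*, *CXCL8*, *CCL2*, *CXCL2*, *LIF*, *PTGS2*, *ICAM1*, *SOD2*, *NFKBIA* and *TNFAIP3*. Of the 10 members, 9 were listed in both deposited matrices, among 13950 genes in the matrix of cyiPSCs and organoids and among 14020 genes in the matrix of the 4 cartilage and repair tissues. *CXCL2* was listed in neither and has no value here. The members are defined by name and not by a measured value.

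The samples were cells of the cynomolgus monkey in 5 conditions. cyiPSCs are undifferentiated induced pluripotent stem cells of 1 line that carries an EGFP reporter, grown on mouse feeder cells. Pre-transplant cyiPS-Cart are cartilage organoids made from that line in a medium with BMP2, TGF-β1 and GDF5. Post-transplant cyiPS-Cart are such organoids recovered 4 months after they had been placed, without immunosuppressive drugs, in knee chondral defects of monkeys aged 3 to 4 years. cyAC is intact articular cartilage and cyFT is the fibrous tissue that had filled defects left empty, both from wild-type monkeys of the same age and time. The deposited genotype of the post-transplant sample is wild type, which is that of the recipient, whereas the study describes its cells as descendants of the EGFP line from its own GFP expression and staining, which were not analysed here. Sites of a monkey were combined, and the number of animals behind a library is not named. The tissues were minced and digested with Liberase. The solution for pre-transplant cyiPS-Cart held the chondrogenic medium with its growth factors and that for cyAC and post-transplant cyiPS-Cart held RPMI-1640, whereas that for cyFT is not named. Sample and digestion medium thus cannot be told apart where pre-transplant cyiPS-Cart is compared with cyAC or with post-transplant cyiPS-Cart.

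NF-κB is a family of transcription factors that IκB proteins hold in the cytoplasm until receptors for TNF, IL-1 or microbial products set off the IKK kinases. Freed NF-κB switches on cytokines and chemokines, the prostaglandin enzyme COX-2 (*PTGS2*), adhesion molecules and the antioxidant enzyme SOD2, together with its own brakes, IκBα (*NFKBIA*) and A20 (*TNFAIP3*). In cartilage this program is known from inflamed and osteoarthritic joints, where chondrocytes make matrix-degrading enzymes and nitric oxide in response to IL-1. Several of the same genes, *PTGS2* among them, are also known to respond to the handling of cells.

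The cyiPSC and pre-transplant cells were sequenced as 1 library and the cyAC and cyFT cells as another, while the post-transplant cells had a separate library. With 1 sample for each condition there was no test between conditions. The 95% intervals given here, exact Poisson for summed reads, exact Clopper-Pearson for shares of cells and exact conditional for ratios, cover counting error only. Those on reads take each read as independent, although no molecular identifier step is described. They can thus be too narrow, and their overlap or separation describes reads and not molecules, cells or animals. The first matrix held 2500 cyiPSCs and 3527 pre-transplant cells, and the second held 320 cells of each of the 4 tissues. Median reads per cell were 143075 and 59249 in the first and lay between 27499.5 (cyFT) and 80335.5 (post-transplant) in the second. Of the pre-transplant cells of the second matrix, 300 were also in the first, so that the pre-transplant values of both matrices are not independent. No cell number was shared between libraries. The labels were set against marker genes. At least 3 of 5 pluripotency markers were held by 1968 of 2500 cyiPSCs and by 6 pre-transplant cells of the first matrix. At least 3 of 6 chondrocyte markers were held by 291 cyFT cells and by 316 to 318 cells of each other tissue, and at least 3 of 5 fibroblast markers by 213 cyFT, 201 pre-transplant, 145 post-transplant and 43 cyAC cells.

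Before deposit the authors had set to 0 those counts that they took for background, gene by gene and library by library, and this was visible in the members. In the library of cyAC and cyFT the lowest count above 0 was 16 reads for *CXCL8* and *CCL2*, 8 for *SOD2* and 7 for *LIF* and *IL6*, but 1 for *PTGS2*, *ICAM1*, *NFKBIA* and *TNFAIP3*. In the post-transplant library it was 40 for *CCL2*, 9 for *PTGS2* and *SOD2*, 8 for *LIF*, 7 for *NFKBIA* and *TNFAIP3* and 1 for *IL6* and *ICAM1*. It was 1 for all members in the library of cyiPSCs and pre-transplant cells. Shares of cells are therefore mostly given at 10 reads or more. Levels are given as CPM, the reads of a gene relative to all reads summed over the cells of a sample, and where it matters a bound on the CPM is added in which each 0 stands for 1 read less than the lowest count.

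Among the cytokines and chemokines, *IL6*, *CXCL8* and *CCL2* were counted below 5 CPM in cyiPSCs and in organoids before and after transplantation and were counted higher in cyAC and cyFT. For *CCL2* the zeros of the post-transplant library allow more than was counted, and for *CXCL8* the higher levels lay in cells with immune markers, without which cyAC was counted at 2.29 CPM and cyFT at 3.71, not above pre-transplant cyiPS-Cart, although the zeros of their library allow up to 406 and 444 CPM. *IL6*, a cytokine that drives the acute phase response, was at 1.27 CPM (95% interval 0.836 to 1.84) in pre-transplant cyiPS-Cart, 0.435 (0.232 to 0.745) in post-transplant cyiPS-Cart, 24.7 (21.9 to 27.7) in cyAC and 11.2 (9.30 to 13.3) in cyFT. The cyAC value came from 5 cells, 1 of which held 181 of 292 reads, and the cyFT value came from 1 cell with 124 reads. The level of *IL6* in both tissues thus rested on very few cells.

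*CXCL8*, the neutrophil-attracting chemokine IL-8, was at 3.85 CPM (3.06 to 4.78) in pre-transplant cyiPS-Cart, at 19.4 (16.9 to 22.0) in cyAC and at 384 (373 to 396) in cyFT, and had no read in post-transplant cyiPS-Cart. For the 0 of 320 post-transplant cells, a limit of 3 counts gives a share with a read of up to 0.938% and the exact interval one of up to 1.15%, both for counting error alone, but a count under which *CXCL8* was set to 0 in this library, if any, cannot be read from the file. In pre-transplant cyiPS-Cart of the second matrix *CXCL8* reads lay in 64 cells, none with more than 3 reads. In the first matrix 21.2% of pre-transplant cells had a read at 59249 median reads per cell, beside 33.8% of cyiPSCs at 143075, and no pre-transplant cell of that matrix held 10 reads.

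*CCL2*, which attracts monocytes, was at 3.10 CPM (2.40 to 3.94) before and 1.34 (0.957 to 1.82) after transplantation, at 216 (208 to 225) in cyAC and at 486 (473 to 499) in cyFT. The single post-transplant cell with *CCL2* held 40 reads, and the zeros of the other cells allow up to 418 CPM, so that post-transplant cyiPS-Cart cannot be ranked against pre-transplant cyiPS-Cart or cyAC for *CCL2*. In cyAC 13 cells held *CCL2*, from 16 to 1593 reads, and in cyFT 14 cells held 39 to 1751 reads. The tissue values were thus those of a small set of cells in both.

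*LIF*, an IL-6 family cytokine that signals through LIFR and gp130, was in contrast spread over many cells. It was at 4.29 CPM (4.09 to 4.49) in cyiPSCs and at 87.4 (86.2 to 88.5) in pre-transplant cyiPS-Cart of the same library, a 20.4-fold difference (19.4 to 21.4). In the second matrix *LIF* was at 90.4 CPM (86.4 to 94.5) before transplantation, 70.8 (67.8 to 73.9) after it, 628 (614 to 642) in cyAC and 239.5 (230.5 to 249) in cyFT. At 10 reads or more it was held by 17.2% (13.2 to 21.8%), 11.2% (8.0 to 15.2%), 41.2% (35.8 to 46.9%) and 14.7% (11 to 19.0%) of cells in the same order. cyAC stood above the other 3 samples in both measures, whereas the intervals of the shares of the other 3 overlapped. At an equal depth and with 1 read enough, the shares were 24.5% (19.8 to 29.5%), 10.9% (7.74 to 14.9%), 45.1% (39.5 to 50.9%) and 17.0% (12.9 to 21.9%). The zeros of the post-transplant library allow up to 137 CPM of *LIF*, so that its order before and after transplantation is not fixed by these counts.

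**Figure D1:**
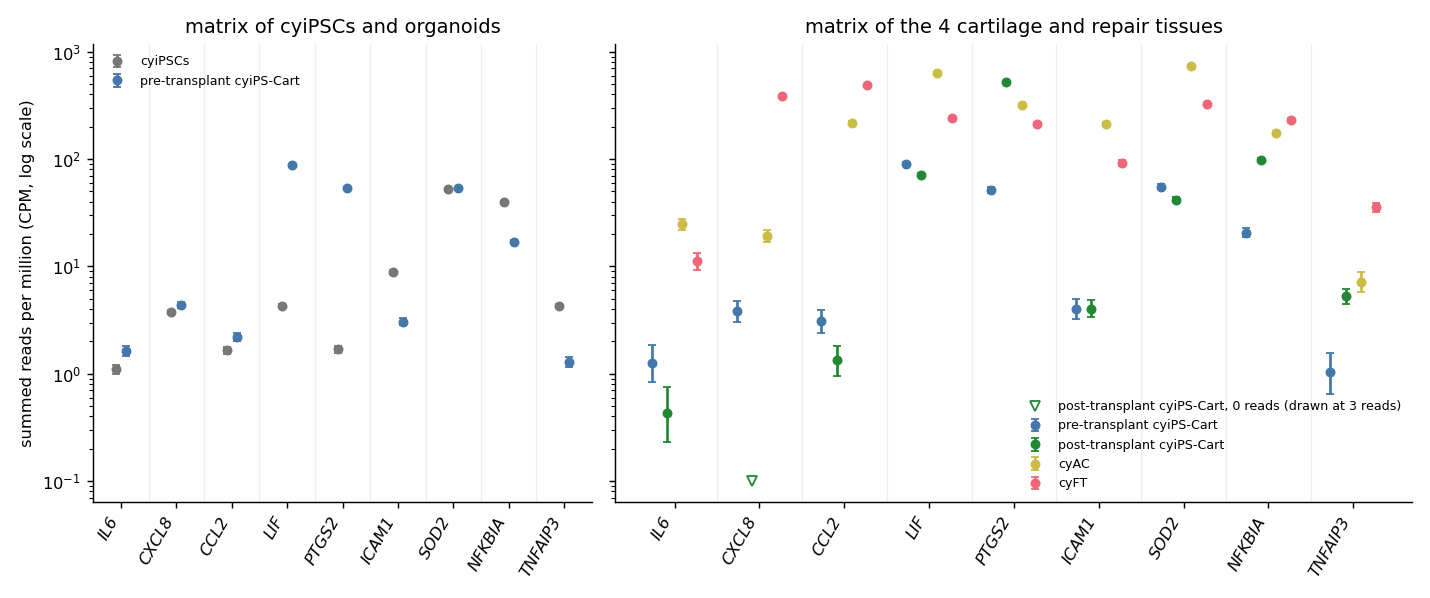
CPM of the summed reads (log scale) of the 9 listed members. The left panel shows cyiPSCs and pre-transplant cyiPS-Cart of the first matrix and the right panel shows the 4 tissues of the second. Points are 1 sample each and bars are exact Poisson 95% intervals. The open triangle marks *CXCL8* in post-transplant cyiPS-Cart, which had 0 reads and is drawn at the level of 3 reads. As counted, *PTGS2* was highest in post-transplant cyiPS-Cart at 520.2 CPM and the other 8 members were highest in cyAC or cyFT, where *TNFAIP3* is not ranked because post-transplant zeros allow 68.2 CPM.

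*PTGS2*, the inducible enzyme that commits arachidonic acid to prostaglandins, was the 1 member counted at its highest level in post-transplant cyiPS-Cart. It was at 1.70 CPM (1.58 to 1.83) in cyiPSCs and 53.5 (52.6 to 54.4) in pre-transplant cyiPS-Cart, a 31.5-fold difference (29.2 to 34.0). In the second matrix it was at 51.6 CPM (48.6 to 54.8) before transplantation, 520.2 (512 to 528) after it, 317 (307 to 327) in cyAC and 214 (206 to 223) in cyFT. At 10 reads or more it was held by 7.19% of cells (4.61 to 10.6%) before transplantation, 41.2% (35.8 to 46.9%) after it, 13.8% (10.2 to 18.0%) in cyAC and 13.1% (9.63 to 17.3%) in cyFT. Post-transplant cyiPS-Cart stood above the other 3 in level and in this share, but its cells were the deepest. With 1 read enough, 42.5% of post-transplant and 44.1% of cyAC cells held *PTGS2*, and at an equal depth 40.3% (34.9 to 45.9%) and 32.8% (27.6 to 38.3%) did, which overlap, beside 26.4% (21.4 to 31.9%) in cyFT and 11.3% (8.03 to 15.3%) before transplantation. The post-transplant reads were spread over 136 cells, of which 19 made up 50% of them and the highest held 9.14%.

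*ICAM1*, the adhesion molecule that binds leukocyte integrins, and *SOD2*, the mitochondrial superoxide dismutase, were highest in cyAC. *ICAM1* was at 4.04 CPM (3.23 to 4.99) before and 4.05 (3.36 to 4.84) after transplantation, which do not separate, and at 213 (205 to 221) in cyAC and 92.4 (86.8 to 98.2) in cyFT. No post-transplant cell held 10 reads of it, beside 10.3% of cyAC cells and 5.00% of cyFT cells. *SOD2* was at 53.1 CPM (52.4 to 53.8) in cyiPSCs and 53.9 (53.0 to 54.9) in pre-transplant cyiPS-Cart of the first matrix, with a ratio of 1.02 (0.993 to 1.04), so that counting error did not separate them. The TMM scaling factors of edgeR were 1.26 and 0.793 for these samples, so that this near equality holds only for scaling by total reads. In the second matrix *SOD2* was at 55.5 CPM (52.4 to 58.8) before transplantation, 41.8 (39.5 to 44.2) after it, 740.3 (725 to 756) in cyAC and 325 (315 to 336) in cyFT. The bound on its zeros puts post-transplant cyiPS-Cart at up to 113 CPM, which is below cyAC and cyFT but above pre-transplant cyiPS-Cart, so that this order too is not fixed.

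Of the feedback inhibitors, *NFKBIA* was counted highest in cyFT over all cells, whereas the highest sample for *TNFAIP3* is not fixed. *NFKBIA* (IκBα) was at 39.8 CPM (39.2 to 40.4) in cyiPSCs and 17.0 (16.5 to 17.5) in pre-transplant cyiPS-Cart of the first matrix. In the second it was at 20.7 (18.8 to 22.7) before transplantation, 98.1 (94.6 to 101.7) after it, 176 (168 to 184) in cyAC and 233 (224 to 242) in cyFT. Its level was thus lowest in the organoids before transplantation. Without the cells that held immune markers, described below, *NFKBIA* was at 185 CPM (177 to 194) in cyFT and 174 (167 to 182) in cyAC, with overlapping intervals. *TNFAIP3* (A20, a ubiquitin-editing enzyme) was at 1.03 CPM (0.647 to 1.56), 5.26 (4.47 to 6.15), 7.19 (5.74 to 8.89) and 35.5 (32.1 to 39.2) in the same order. At 10 reads or more *TNFAIP3* was held by no pre-transplant, 6 post-transplant, 3 cyAC and 9 cyFT cells, and the zeros of the post-transplant library allow up to 68.2 CPM, so that post-transplant cyiPS-Cart cannot be ranked against cyAC or cyFT for *TNFAIP3*.

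The first comparison asked how the members and the pathway around them differed between the stem cells and the organoids made from them. A gene was compared where 1 of the samples or both reached 10 CPM, and a log2 ratio of CPM + 1 of at least 1 in size was counted as higher or lower. In every comparison a gene under 10 CPM in 1 sample was thus compared only through the other, and could not be counted lower there. Of the 4 members that could be compared, *LIF* (log2 ratio 4.06) and *PTGS2* (4.34) were higher in pre-transplant cyiPS-Cart, beside 16.5% of all 8576 genes. *NFKBIA* was lower (-1.18), beside 37.4% of genes, and *SOD2* (0.02) was within the limits. The median over all genes was -0.61. With edgeR's TMM factors, which moved that median by 0.65, 25.2% of genes were higher and 19.6% were lower, and *NFKBIA* was at -0.54 and no longer counted. *ICAM1* (3.05 against 8.89 CPM) and *TNFAIP3* (1.29 against 4.26) were under 10 CPM on both sides and were not counted.

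The sensing side of the pathway was at higher levels in the organoids. Of 9 compared receptors, 7 were higher and none was lower, among them *IL1R1*, the IL-1 receptor (105 against 7.14 CPM), its partner *IL1RAP* (145 against 19.9) and *TLR4*, a receptor for bacterial lipopolysaccharide (46.7 against 1.82). Of 8 NF-κB subunits and kinases, 3 were higher, with *NFKB1* at 56 against 4.79 CPM and *RELA* at 68.5 against 20.6, and 1, *IKBKB*, was lower at 5.66 against 15.3. Of 10 other inhibitors and feedback genes, 4 were higher, including *IER3* at 588 against 13.6 CPM and *BIRC2* at 253 against 63.6, and 1, *TNFAIP8*, was lower at 11.1 against 70.5. Subunits and inhibitors thus lay on both sides, while the receptors lay on 1 side. Of all 8576 genes, 16.5% were higher and 37.4% were lower. *IL1R1* and *TLR4* were under 10 CPM in cyiPSCs and were compared only through the organoids, so that they could not be counted lower.

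Among the genes of secreted products that reached the minimum level, all 3 compared ligands were higher, the IL-6 family cytokine *IL11* at 226 against 3.58 CPM, *TNFSF11* (RANKL) at 26.9 against 6.21 and its decoy receptor *TNFRSF11B* at 288 against 1.41. All 3 compared target genes of stromal cells were higher, the collagenase *MMP1* at 46.2 against 2.08 CPM, the stromelysin *MMP3* at 355 against 7.18 and *TNFAIP6* at 40.1 against 1.83. All of these ligands and targets were under 10 CPM in cyiPSCs and were compared only through the organoids. None of them could therefore be counted lower, and their 1-sided counts follow in part from the minimum level. The 2 compared chemokines were split, with *CX3CL1* higher at 11.8 against 4.09 CPM and *CXCL12* lower at 0.595 against 21.6. So were the prostaglandin genes, of which the synthase *PTGES* was higher at 34.5 against 9.14 CPM, *PTGES3* was lower at 435 against 1123 and the phospholipase *PLA2G4A* was within the limits. Of 4 compared genes of the JAK-STAT pathway, through which *IL6* and *LIF* signal, 3 were higher, with *JAK1* at a log2 ratio of 2.49 and *JAK2* at 2.65. Of 6 early response genes, which dissociation of tissue is known to raise, 5 were higher, with *FOS* at 665 against 31.4 CPM, and their part in the values of *LIF* and *PTGS2* was not tested.

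The second comparison set post-transplant against pre-transplant cyiPS-Cart, which came from different libraries. Of 4 compared members, *PTGS2* (log2 ratio 3.31) and *NFKBIA* (2.19) were higher, beside 8.92% of all 7587 genes, and none was lower, beside 18.5% of genes. *LIF* (-0.35) and *SOD2* (-0.40) were within the limits, and the median over all genes was -0.25. *PTGS2* was 10.1-fold higher (9.48 to 10.7) and *NFKBIA* was 4.75-fold higher (4.29 to 5.26). The enzymes on either side of *PTGS2* in prostaglandin synthesis were higher too, with *PTGES*, which converts its product to prostaglandin E2, at 157 against 37.4 CPM and *PLA2G4A*, which releases its substrate, at 28.8 against 10.7, while *PTGES3* was lower at 196 against 419. With zeros at the bound in both samples 5 members were higher in place of 2, among them *SOD2* at a log2 ratio of 1.01.

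All 7 compared early response genes were higher after transplantation, with *FOS* at 5742 against 623 CPM, *EGR1* at 309 against 28.1 and *FOSB* at 78.5 against 4.41. Over the post-transplant cells the summed early response genes had a Spearman correlation of 0.25 with *PTGS2* and of 0.09 with *NFKBIA* on counts thinned to an equal depth. Their part in the higher levels of *PTGS2* and *NFKBIA* was not tested.

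Receptors lay on the other side in this comparison. Of 9 compared, 6 were lower after transplantation and none was higher, with *TLR4* at 1.98 against 45.2 CPM, *IL1RAP* at 12.8 against 126 and *IL6R* at 14.7 against 118. Of 6 NF-κB subunits and kinases, 5 were within the limits and *CHUK*, which encodes IKKα, was lower (20.5 against 50.1 CPM). Of 9 inhibitors and feedback genes *NFKBIZ* was higher (169 against 55.0 CPM) and the deubiquitinase *CYLD* (25.7 against 77.0) and *BIRC2* (139.8 against 286) were lower. The remaining lists had few members past the limits. Among 3 ligands *TNFSF11* was higher (88.0 against 25.1 CPM) and *IL11* was lower (53.5 against 237), among 3 stromal target genes *MMP1* was lower (15.6 against 49.3, with up to 95.8 allowed by zeros), among 4 JAK-STAT genes *JAK2* was lower (66.0 against 171), and the single compared chemokine, *CX3CL1*, was within the limits (23.0 against 15.3).

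**Figure D2:**
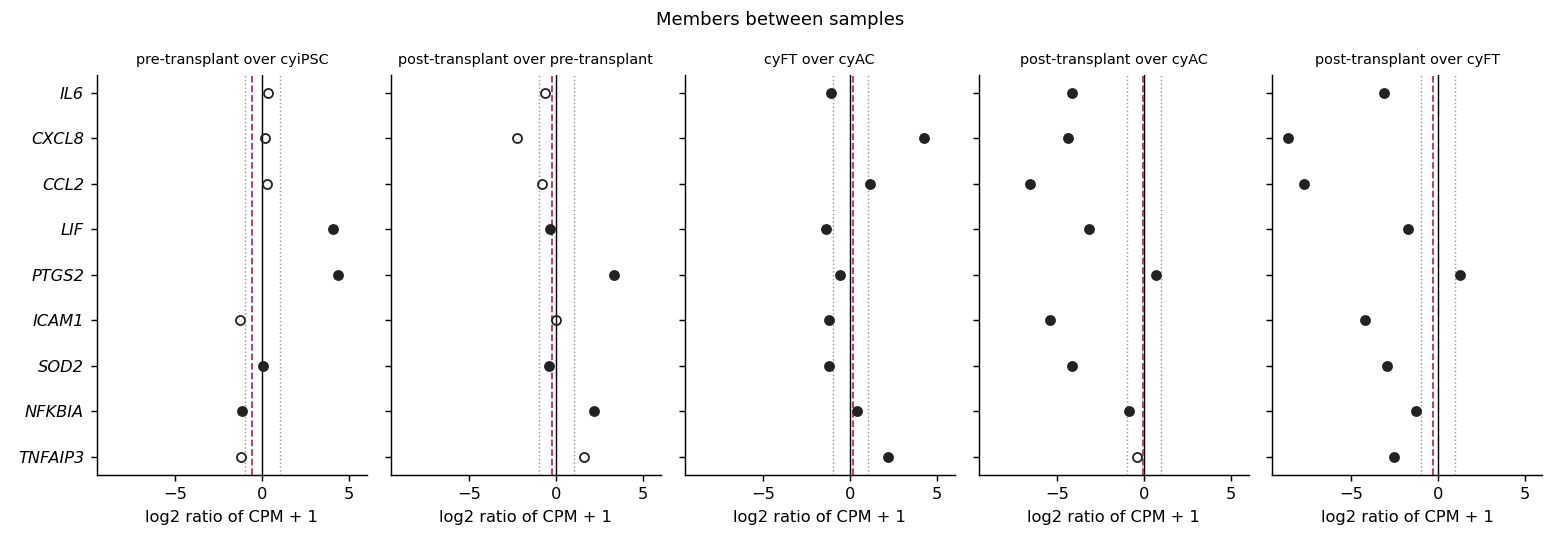
Log2 ratio of CPM + 1 of each listed member in the 5 comparisons, with 1 sample on each side and no error across samples. Filled points had at least 10 CPM in either sample and open points had less. Dotted lines mark ratios of -1 and 1 and the dashed line marks the median over all compared genes. *PTGS2* was higher after transplantation than before (3.31) and than in cyFT (1.27), whereas 8 members were counted lower in post-transplant cyiPS-Cart than in cyFT. Of these, 3 stayed counted lower with post-transplant zeros at the bound, *TNFAIP3* is not ranked and *CXCL8* has no bound that can be read.

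The third comparison set cyFT against cyAC, which shared a library and had nearly equal depth. All 9 members could be compared. *CXCL8* (log2 ratio 4.24), *CCL2* (1.17) and *TNFAIP3* (2.16) were higher in cyFT, beside 12.2% of all 7900 genes. *IL6* (-1.08), *LIF* (-1.39), *ICAM1* (-1.20) and *SOD2* (-1.18) were lower, beside 3.92% of genes, and *PTGS2* (-0.56) and *NFKBIA* (0.40) were within the limits. The median over all genes was 0.19. The 3 members counted as higher were held mainly by cells with immune markers, and without those cells *CXCL8* was at 0.52, *TNFAIP3* at 0.58 and *CCL2* at -3.73 as counted. Of the 4 counted as lower, *IL6* was then at -0.89 and no longer counted, and the other 3 were. With zeros at the bound, 1 member was higher (*TNFAIP3*) and 1 was lower (*ICAM1*), which are both members with a lowest count of 1.

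Over all cells none of 7 compared subunits and kinases passed the limits in either direction, the nearest being *RELB* (32.7 against 65.0 CPM) and *NFKB1* (89.3 against 163). Without the cells that held immune markers, which had 36.5% of the cyFT reads of *NFKB1*, both were counted lower in cyFT, at 30.3 against 65.0 and 61.4 against 163 CPM. Over all cells, of 11 inhibitors and feedback genes 4 were lower in cyFT and none was higher, with *TRAF1* at 21.8 against 74.4 CPM, *NFKBIZ* at 117 against 336 and *NFKBIB* at 18.9 against 49.1. Of 5 stromal target genes 3 were lower, *NOS2*, the inducible nitric oxide synthase (13.5 against 257 CPM), the adhesion molecule *VCAM1* (56.6 against 377) and *MMP3* (439 against 1442), and *MMP1* was higher (27.1 against 10.1), but from 1 cell in each tissue. With the zeros of the lower sample at the bound, *VCAM1* and *MMP3* stayed counted, whereas *NOS2* and *MMP1* did not.

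Ligands were counted on the side of cyFT over all cells. Of 7 compared, 5 were higher in cyFT and none was lower, with *IL1B* at 118 against 0.507 CPM, *IL1A* at 13.3 against 0.0846 and *TNFSF11* at 33.9 against no read. These named ligands were compared only through cyFT and could not be counted lower there. Of 3 chemokines *CX3CL1* was higher (14.5 against 5.50 CPM), *CCL7* was lower (log2 ratio -3.47, not counted with zeros at the bound) and *CXCL1* was within the limits (296 against 199). Of 10 receptors, *TLR4* (38.6 against 10.6 CPM) and *IL1RAP* (14.8 against 4.90) were higher. Among 5 prostaglandin genes the prostaglandin E2 receptor *PTGER4* was higher (16.7 against 1.35 CPM), and all 4 JAK-STAT genes were within the limits. Of 7 early response genes 3 were higher in cyFT, *NR4A1* at 455 against 147 CPM, *JUN* at 736 against 247 and *FOS* at 1836 against 754.

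Several of these counts changed without the cells that held immune markers. Of the ligands only 4 then reached the minimum level, and *IL11* and *TNFSF11* were higher in cyFT. *IL1B* was at 0.585 against 0.423 CPM and *IL1A* at 0.293 against 0.0847, which are both under that level. *TLR4* was at 4.59 against 10.6 CPM and so turned its direction, with 1 of 10 receptors higher and 2 lower. *CXCL1* was at 12.6 against 179.7 CPM and came to be counted lower, but with a lowest count of 12 its zeros allow up to 333 CPM in cyFT, so that this order is not fixed. The inhibitors and feedback genes had 4 of 11 lower and the stromal targets 3 of 5 lower, as over all cells. Of all 7740 genes compared in this way 10.1% were higher and 4.34% were lower.

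Post-transplant cyiPS-Cart was then set against cyAC and cyFT, neither of which shared its library. These comparisons have the post-transplant sample in common with the earlier one and with each other. Against cyAC, 6 of 8 compared members were lower after transplantation, beside 15.8% of all 7621 genes, and none was higher, beside 10.7% of genes. The 6 were *IL6* (log2 ratio -4.16), *CXCL8* (-4.35), *CCL2* (-6.54), *LIF* (-3.13), *ICAM1* (-5.40) and *SOD2* (-4.12). *PTGS2* (0.71) and *NFKBIA* (-0.84) were within the limits, and the median over all genes was -0.08. Of the 6, *LIF*, *ICAM1* and *SOD2* lay in 145, 138 and 139 cyAC cells, while the others lay in 13 or fewer. Of the cyAC reads of *LIF* 50% lay in 23 cells, of *SOD2* in 16 and of *ICAM1* in 6, with a median of 2 *ICAM1* reads in the cells that held it. *CCL2* is not ranked for the reason given above, and *CXCL8* is not either, since its lowest count after transplantation cannot be read. Without the cells that held immune markers *CXCL8* reached 10 CPM in neither sample and the other 5 were still counted. Without the 3 cells with most reads *IL6* was at -1.19 and *CXCL8* at 0, with neither reaching 10 CPM. *ICAM1* was 52.6-fold lower (43.8 to 63.6), *SOD2* 17.7-fold lower (16.7 to 18.8) and *LIF* 8.87-fold lower (8.45 to 9.31) after transplantation than in intact cartilage. With the post-transplant zeros at the bound, the fold was 6.55 for *SOD2* and 4.59 for *LIF* and stayed at 52.6 for *ICAM1*.

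Many genes around the members were at lower levels than in cyAC as well. Of 8 NF-κB subunits and kinases 4 were lower and none was higher, with *RELB* at 4.39 against 65.0 CPM, *NFKB1* at 33.4 against 163 and *NFKB2* at 25.0 against 81.4. Of 11 inhibitors and feedback genes 6 were lower and none was higher, with *TRAF1* at 3.38 against 74.4 CPM, and of 10 receptors 7 were lower and 1 was higher, with *IL1R1* at 59.6 against 497 and *IL6R* at 14.7 against 142. Of 5 stromal targets 3 were lower, *NOS2* at 0.904 against 257 CPM, *VCAM1* at 6.23 against 377 and *MMP3* at 299 against 1442. Of 3 chemokines *CXCL1* (2.04 against 199 CPM) and *CCL7* were lower and *CX3CL1* was higher (23.0 against 5.50). Some genes lay on the other side. *TNFSF11* (88.0 CPM against no read) and *PTGES* (157 against 47.0) were higher after transplantation, as were 5 of 7 early response genes. With zeros at the bound in the lower sample, 33 of the 34 genes of these lists that were higher or lower stayed so, the exception being *LIFR*, and *RELB*, *NFKB1* and *NFKB2* had a lowest count of 1 in the post-transplant library.

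Against cyFT, 8 of 9 members were counted lower after transplantation, beside 21.8% of all 7981 genes, and *PTGS2* (log2 ratio 1.27) was higher, beside 6.65% of genes. The 8 ran from *NFKBIA* at -1.24 to *CXCL8* at -8.59, and the median over all genes was -0.30. With post-transplant zeros at the bound over all cells, *IL6*, *ICAM1* and *SOD2* were still counted lower, *LIF* (-0.80), *NFKBIA* (-0.75) and *CCL2* (-0.22) were within the limits and *CXCL8* cannot be read. *TNFAIP3* was at 0.92 with zeros at the bound and is not ranked, and *IL6* was at 0.048 without the 3 cells with most reads, since 1 cyFT cell held all its reads. *PTGS2* was 2.43-fold higher (2.32 to 2.53). Of 7 early response genes 4 were higher as well and none was lower, and their part in the value of *PTGS2* was not tested. Without the cells that held immune markers 5 of the 8 were still counted. The 3 that dropped out were *CXCL8*, for which neither sample then reached 10 CPM, *NFKBIA* (-0.93) and *TNFAIP3* (-0.95). Of the 5, *CCL2* and *SOD2* are not ranked, since post-transplant zeros allow up to 421 and 114 CPM beside 14.5 and 112 CPM in the other cyFT cells, and *IL6* rested on 1 cyFT cell. *ICAM1* (4.09 against 32.1 CPM) is not touched by this bound, and *LIF* was below cyFT at it (up to 138 against 259) but by less than the limit. Receptors (6 of 10 lower, none higher), inhibitors and feedback genes (5 of 11 lower, 1 higher, 5 within the limits), ligands (5 of 7 lower, 1 higher) and subunits and kinases (3 of 8 lower, none higher, 5 within the limits) had more genes lower than higher. With zeros at the bound in the lower sample, 29 of the 32 list genes that were higher or lower stayed so, the exceptions being *IL1A*, *VCAM1* and *IL1B*, for which no lowest count can be read. Without the cells that held immune markers the numbers lower and higher were 5 and 0 of 9 receptors, 4 and 2 of 10 inhibitors and feedback genes, 2 and 1 of 4 ligands and 2 and 0 of 7 subunits and kinases, beside 20.2% and 6.98% of all 7821 genes. Among the receptors then still lower were *IL6R* at 14.8 against 66.7 CPM and *OSMR* at 5.21 against 23.7, whereas *TLR4* and *IL1B*, at 38.6 and 118 CPM over all cyFT cells, were at 4.59 and 0.585 in the other cyFT cells and were not compared. Of 5 prostaglandin genes *PTGES* (157 against 45.7 CPM) and *PLA2G4A* (28.8 against 11) were higher and *PTGER4* was lower (2.71 against 16.7).

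The reads of *CXCL8* and *CCL2* in cyFT were traced to cells. Cells were taken as holding immune markers where they had reads of at least 3 of 11 listed pan-immune and macrophage markers, a class chosen after the member values had been seen. The class held 17 of 320 cyFT cells (5.31%), 1 cyAC cell, 1 post-transplant cell and no pre-transplant cell. The same rule took 63 of 2500 cyiPSCs (2.52%), in which *CXCL8* was at 3.39 CPM beside 3.77 in the other cyiPSCs. The 7 listed macrophage markers summed to 759 CPM in cyFT and to between 4.27 and 26.5 CPM in the other tissues, and the 4 pan-immune markers to 203 CPM and to between 0.423 and 7.19. *CD68* and *FCER1G* were held by all 17 cyFT cells and *CD14*, *CD163*, *CSF1R*, *C1QA*, *C1QC* and *LAPTM5* by 16 each, which follows in part from how the class was made. None of the 17 had a *COL1A1* read, while 12 held *ACAN* reads and 2 held *COL2A1* reads, at 1047 and 5885 CPM over the class. Of the T cell markers *CD3E* and *TRAC* had no read in cyFT, while *CD3D* and *CD2* had low counts in 42 to 103 cells of every tissue, and of the neutrophil markers *S100A8* had no read in cyFT and *S100A9* was held by 5 cyFT cells at 0.722 CPM and by 6 cyAC cells, none of the class, at 46.0 CPM. The post-transplant cell of the class was a deep one with 275333 reads and a *COL2A1* level of 46718 CPM, and it held no *CXCL8* or *CCL2* read.

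Those 17 cells held 99.1% of the *CXCL8* reads and 97.2% of the *CCL2* reads of cyFT, with 7.55% of all its reads. *CXCL8* was at 5043 CPM in them and at 3.71 (2.62 to 5.09) in the other 303 cells. *CCL2* was at 6257 CPM in them and at 14.5 (12.3 to 17.1) in the others. Of the 17 cells, 12 held *CXCL8*, with 0 to 948 reads over the class and a median of 88, and 12 held *CCL2*, with 0 to 1751 reads and a median of 112. Reads of each chemokine were kept in 2 of the other 303 cells. Since the lowest count of both in this library was 16, the zeros of the other cells allow up to 444 CPM of *CXCL8* and 455 CPM of *CCL2*, which are below the levels in the 17 cells but far above those counted.

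*ICAM1*, *SOD2* and *TNFAIP3* had 67.9%, 68.3% and 70.8% of their cyFT reads in the same cells, and *NFKBIA* had 26.6% of its reads there. *LIF* and *IL6* had no read in any of the 17, and *PTGS2* had 2 reads among them beside 2376 in the other cells. By reads, *CXCL8*, *CCL2*, *ICAM1*, *SOD2* and *TNFAIP3* thus lay mainly in the 17 cells and *LIF*, *IL6* and *PTGS2* in other cells. *NFKBIA* was in neither group, with most reads in other cells but 819 CPM in the 17 cells and 185 in the others. By number, 76 of 90 cells with *ICAM1*, 59 of 74 with *SOD2* and 19 of 29 with *TNFAIP3* were other cells. Genes of the pathway lists lay in the same cells, with 99.5% of the *IL1B* reads (1304 reads in 6 cells), 98.0% of the *IL1A* reads (144 in 5 cells) and 96.1% of the *CXCL1* reads (3157 in 12 cells). The share of *TLR4* reads was 89.0% and that of *TRAF1* was 66.9%.

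In cyAC the sources of the chemokines differed. The 1 cyAC cell with immune markers held 202 of 229 *CXCL8* reads but 129 of 2555 *CCL2* reads. The other 12 *CCL2* cells included 1 with 1593 reads, which also held 1077 *COL2A1* and 410 *ACAN* reads, and 11 of the 12 held *COL2A1* reads. *CCL2* reads kept in cyAC thus lay mainly in cells with cartilage collagen. Without the cells that held immune markers, *CCL2* was counted at 205 CPM (197 to 214) in cyAC and 14.5 in cyFT, the reverse of the order over all cells. With zeros at the bound it was at up to 595 and 455 CPM, so that the order of the tissues in *CCL2* outside those cells is not fixed. *SOD2* was then at 738 (722 to 753) and 112 (105 to 118) CPM, *ICAM1* at 212 (203 to 220.0) and 32.1 (28.7 to 35.8), and *LIF* at 629 (615 to 643) and 259 (249 to 269), all with the direction they had before. The zeros of these cyFT cells allow up to 278 CPM of *SOD2* and 407 CPM of *LIF*, which are below the levels counted in cyAC. The cyFT cell that held all *IL6* reads had 6058 *COL2A1* reads, and the 4 cyAC cells with *IL6* outside the class all held *COL2A1* reads.

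**Figure D3:**
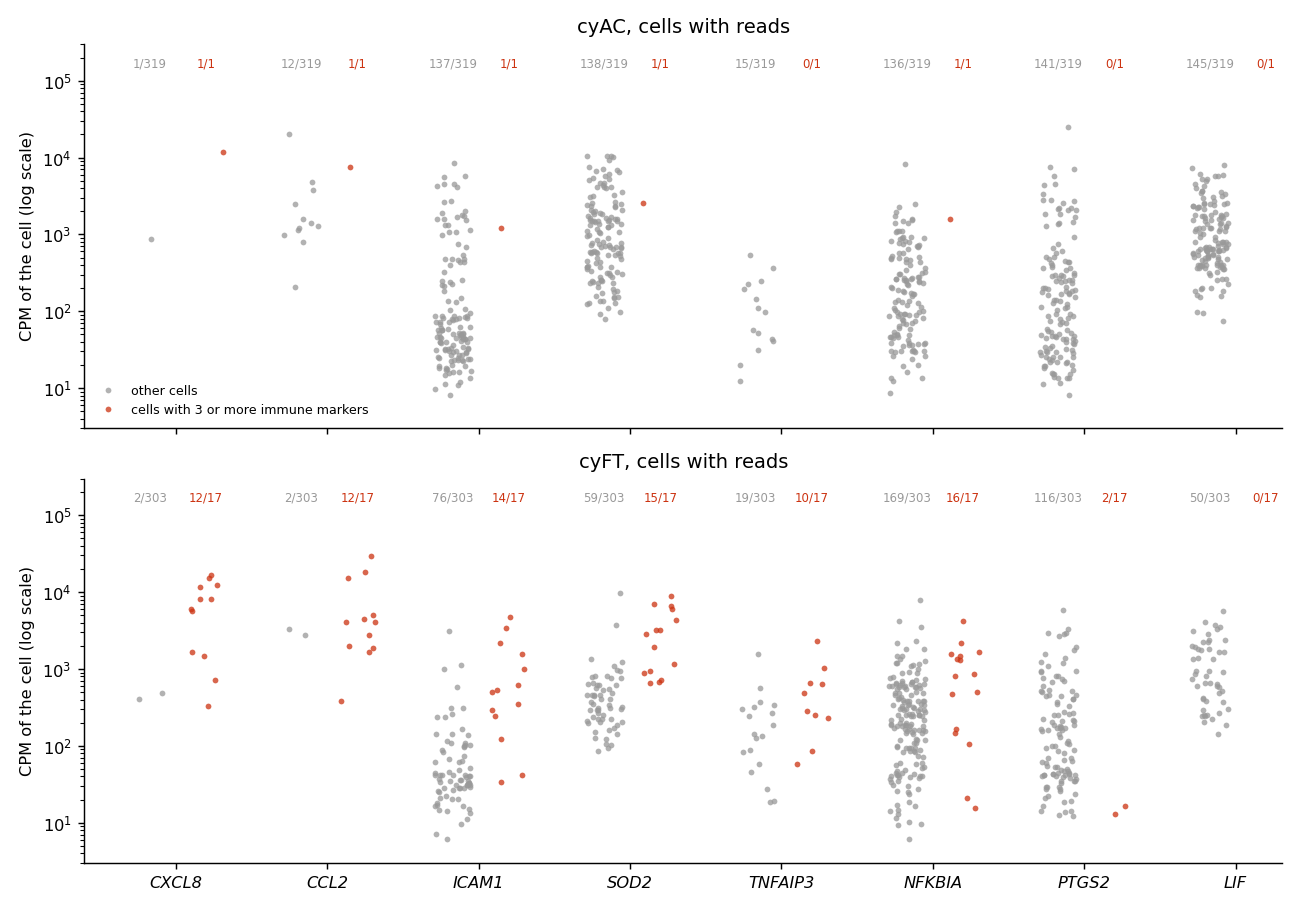
CPM of single cells (log scale) for 8 members in cyAC (top) and cyFT (bottom), where each point is a cell with reads of the gene. Red points are cells with reads of at least 3 pan-immune or macrophage markers, grey points are the other cells, and the printed fractions are cells with reads over all cells of that kind. In cyFT reads of *CXCL8* and *CCL2* were kept in 12 of 17 red cells each and in 2 of 303 grey cells each, while *LIF* lay in no red cell and in 50 grey cells.

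The remaining cells were sorted by the collagen they expressed, type II collagen (*COL2A1*) marking cartilage and type I collagen (*COL1A1*) marking fibrous tissue. The summed level of *LIF* was higher in cells with *COL2A1* reads only than in cells with *COL1A1* reads only in all 4 samples. In cyFT *LIF* was at 537 CPM (515 to 559) in 82 *COL2A1*-only cells and 15.2 (11.8 to 19.4) in 170 *COL1A1*-only cells, and in cyAC at 694 (678 to 710.3) in 276 and 32.9 (19.5 to 51.9) in 16 cells. Before transplantation it was at 102 CPM (97.0 to 107) in 242 and 32.2 (22.6 to 44.6) in 19 cells, and after it at 84.3 (80.7 to 88.1) in 264 and 19.3 (10.8 to 31.8) in 7 cells. The cells with *LIF* reads were 38 of 82 and 5 of 170 in cyFT, 136 of 276 and 1 of 16 in cyAC, 85 of 242 and 3 of 19 before transplantation and 35 of 264 and 1 of 7 after it. After transplantation the shares were thus 13.3% and 14.3%, which do not separate, and there and in cyAC the *COL1A1*-only value rested on 1 cell. The zeros of the *COL1A1*-only cells allow up to 244 CPM in cyFT, 197 in cyAC and 73.2 after transplantation, which are each below the level counted in the *COL2A1*-only cells but make the folds much less certain than their intervals.

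*PTGS2* was higher in the *COL2A1*-only cells of 3 samples. It was at 624 (614 to 634) against 21.8 CPM (12.7 to 35.0) after transplantation, 339.5 (328 to 351) against 80.3 (58.4 to 107.9) in cyAC and 416 (397 to 435.8) against 79.2 (71.1 to 88.1) in cyFT. Before transplantation it was at 51.0 (47.4 to 54.7) and 64.5 (50.4 to 81.2) CPM, with overlapping intervals. The post-transplant *COL1A1*-only value rested on 1 of 7 cells, and the zeros of the others allow more. Among *COL2A1*-only cells the level of *PTGS2* was thus highest after transplantation and lowest before it, with cyFT above cyAC.

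*NFKBIA* had the opposite order in 3 samples. It was at 35.6 CPM (30.2 to 41.6) in *COL2A1*-only and 311 (295 to 328) in *COL1A1*-only cells of cyFT, at 163 (155 to 171) and 497 (439 to 559) in cyAC and at 12.7 (11 to 14.7) and 68.1 (53.6 to 85.2) before transplantation. After transplantation it was at 97.8 (93.9 to 101.8) and 42.4 (29.2 to 59.5), the latter from 2 of 7 cells and with more allowed by the zeros of the others. *ICAM1* was at 52.6 (46.0 to 59.8) and 13.9 (10.6 to 17.8) in cyFT, and its intervals overlapped between the classes in the other 3 samples. *SOD2* had no common order, with 663 (647 to 679) and 1015 (933 to 1103) CPM in cyAC, 59.3 (55.5 to 63.3) and 15.2 (8.87 to 24.4) before transplantation, 38.9 (36.4 to 41.4) and 97.7 (76.9 to 122) after it and overlapping intervals in cyFT. The value of 97.7 came from 2 of 7 cells, and zeros allow up to 112 CPM in the post-transplant *COL2A1*-only cells. In cyFT the *COL2A1*-only cells had a median of 47802.5 reads and the *COL1A1*-only cells 21830, and the part of depth in these values was not tested. With collagen limits of 100 reads in place of 1, the order of the classes in *LIF*, *PTGS2* and *NFKBIA* was as given in cyAC and cyFT. Before and after transplantation the folds between the classes were identical at both limits, so that this check could not change them.

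**Figure D4:**
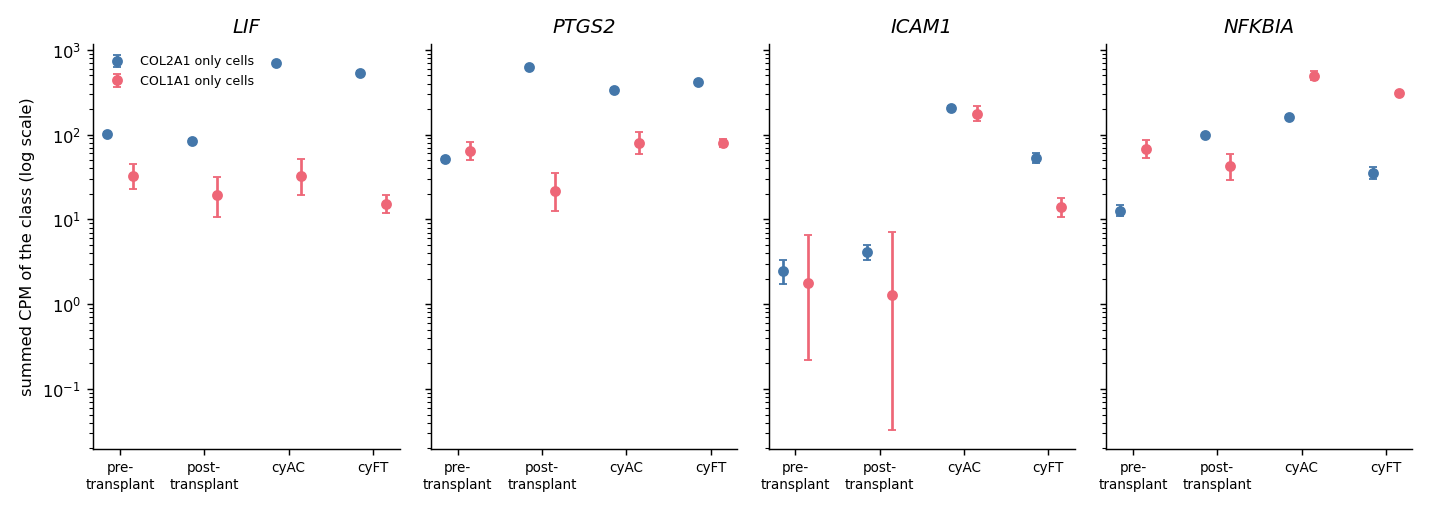
Summed CPM (log scale) of *LIF*, *PTGS2*, *ICAM1* and *NFKBIA* in cells with *COL2A1* reads only (blue) and with *COL1A1* reads only (red) in the 4 tissues, with cells that held immune markers left out. Points are 1 class of 1 sample and bars are exact Poisson 95% intervals. Summed *LIF* was higher in *COL2A1*-only cells in all 4 samples and *NFKBIA* was higher in *COL1A1*-only cells in 3 of 4.

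Whether members were used by the same cells was read from counts thinned to 12191 reads per cell, which left out 1 pre-transplant, 12 cyAC and 32 cyFT cells and no post-transplant cell. Only members held by at least 10% of the thinned cells entered, and all pairs of a sample share its cells and library. The median Spearman correlation over 6 pairs was 0.01 (range -0.09 to 0.09) before and -0.01 (-0.06 to 0.20) after transplantation, and over 10 pairs it was 0.14 (-0.01 to 0.32) in cyAC and 0.09 (-0.17 to 0.31) in cyFT. The highest were *SOD2* with *NFKBIA* in cyAC (0.32) and *LIF* with *PTGS2* in cyFT (0.31), and the latter pair was also the highest after transplantation (0.20). At the depth of each cell, 36 of 50 cyFT cells with *LIF* also held *PTGS2*, beside 18.4 expected from the single shares. After transplantation 27 of 38 did, beside 16.15 expected. In cyAC 71 of 145 did, beside 63.9 expected, and before transplantation 20 of 104, beside 16.25 expected. *ICAM1* with *SOD2* in cyFT went from 0.22 to -0.02 when the cells with immune markers were left out. In sparse counts such weak correlations are a description only.

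At the depth of each cell, 4 or more members were held by 15 of 320 cells (4.69%) before transplantation, 6 (1.88%) after it, 72 (22.5%) in cyAC and 38 (11.9%) in cyFT, and on thinned counts by 0.313%, 0.625%, 15.3% and 7.99%. With 10 reads required of each member the numbers were 1, 2, 18 and 17 cells, and no member reached 10 reads in 209, 99, 108 and 162 cells. Cells with several members were thus mostly cells of cyAC and cyFT, as were those expected from the single shares. cyAC and cyFT do not separate at 10 reads (5.63%, 3.37 to 8.74%, and 5.31%, 3.12 to 8.37%). With 1 read enough, 55, 77, 34 and 61 cells held no member in the same order, and on thinned counts 37.3%, 29.4%, 14.3% and 24.3% did, so that the place of post-transplant cyiPS-Cart in this order turned on the reads required and on depth.

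For each sample the 5 other genes that ranked most like the mean rank of the members over thinned cells were taken. After transplantation these were *GADD45B* (Spearman rho 0.38), *SERTAD1*, *RGS2*, *KLF10* and *KLF4* (0.30) among 2895 genes. In cyAC they were *NFKBIZ* (0.39), *IER3*, *SDC4*, *VCAM1* and *TRAF1* (0.31) among 3031 genes, of which all but *SDC4* are in the pathway lists used here. The share of the 3031 genes in those lists was not set beside this, and the lists were chosen with earlier results of these data known. In cyFT they were *STX3* (0.30), *TUBA1C*, *HMOX1*, *Mafa-B* and *HLA-F* (0.28) among 3273 genes, and before transplantation *DNAJA3* (0.21), *DDR2*, *CTTN*, *SNRPD3* and *UQCRB* (0.17) among 4293 genes.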

How the data were processed

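Libraries were made by TAS-Seq, a bead-based single-cell method, with hashtag antibodies for pooled samples. Per the study's methods, cDNA reads were assigned to cynomolgus cDNA and non-coding RNA of Ensembl through Bowtie2 indexes. The submitters' processing notes list cutadapt 3.4, Bowtie2 2.4.2 and GRCh38, with no role given. The authors deposited counts of reads per gene and cell after a knee-plot choice of barcodes, hashtag assignment, setting low counts of a gene to 0 within a library by a mixture model, and a mitochondrial filter, and they reduced the tissues to 320 cells each. No molecular identifier step is described, so reads are not independent molecules.

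Cells were mapped to samples by the prefix of their names, as in the code supplied with the study, and 0 columns stayed unmapped. Reads were summed per sample, scaled to CPM and compared as log2 ratios with a pseudocount of 1 CPM. With 1 sample for each condition no test was run. The members, marker lists and pathway lists were chosen with earlier results of these data known. The rule for naming was all members, the 3 compared genes of each list with the largest ratio and the 5 genes most like the members over cells. Not every list has 3 named genes in every comparison, and some genes outside the rule are named, such as *LIFR*. *MMP1* between cyFT and cyAC, the class of cells with immune markers and the alternatives on that class and on zeros were chosen after seeing the data. Scrublet in scanpy 1.11.5 marked 0.249% of 6027 cells of the first matrix, which is not taken to have worked, and no doublet was removed from the reported values. On simulated counts of 13950 or 14020 genes, 98 to 100% of genes changed 2-fold or 4-fold came back close to their simulated ratio in each comparison. The genes changed 2-fold had median log2 ratios of 0.903 to 0.939, which are under the limit of 1. The simulated counts had Poisson error only. Spread between cells or samples, repeated reads of a molecule and counts set to 0 were not simulated, so the check does not cover them. Tools were Python 3.11.15, numpy 2.4.6, pandas 2.3.3, scipy 1.17.1, R 4.3.3 and edgeR 4.0.16, the last for TMM factors only. A RefSeq table served for names.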

Additional observations from a re-analysis of the deposited data

How the results depend on the processing

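Of 540 log2 ratios of members under an alternative, 494 stayed counted or not counted as before, and 33 fell inside the limits or under the minimum level. A further 7 came to be counted, and 6 changed sign while counted in at least 1 of the settings. Changes of sign among ratios counted in neither setting, such as that of *LIF* after against before transplantation with zeros at the bound, are among the 494. Of 120 counts of members higher or lower, 108 stayed within 1.5 times the reported count. The count of 1 member lower in pre-transplant cyiPS-Cart than in cyiPSCs (*NFKBIA*) was 0 with TMM factors, with a pseudocount of 10 CPM and with a minimum of 50 CPM, and 3 with no minimum. The count of 0 members lower after transplantation than before was 1 with no minimum. A stricter set of cells raised the count of members higher after transplantation than in cyAC from 0 to 1, and so did zeros at the bound, again 1. Without cells that held immune markers the count higher in cyFT than in cyAC went from 3 to 0, *CCL2* there from 1.17 to -3.73, and the count lower after transplantation than in cyFT from 8 to 5. Without the 3 cells with most reads, *IL6* after transplantation against cyFT was at 0.048 in place of -3.09, because 1 cell held all cyFT reads. With zeros at 1 read under the lowest count, post-transplant against pre-transplant gave 6.68 for *CCL2* and 1.01 for *SOD2* and a count of 5 higher in place of 2, *TNFAIP3* was at 3.08 against cyAC and 0.92 against cyFT, and cyFT against cyAC gave 1 higher and 1 lower in place of 3 and 4. *CCL2* in cyFT against cyAC lay near the limit, at 1.00 as a mean over cells, 0.98 with TMM factors and 0.30 in the stricter cells. The alternatives on immune markers and on zeros were chosen after seeing the data. Leaving out doublets could not be run for the first matrix. No paired analysis was possible because each condition was 1 sample. Thinning cyAC cells to an equal depth lowered the share of cells with *ICAM1* from 43.1 to 29.9% and that with *NFKBIA* from 42.8 to 32.8%, while that with *CCL2* went from 4.06 to 4.22%.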
